A study of Drosophila melanogaster with 15 samples.

Results

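Transcripts of the cell death inducers, their inhibitor, the caspase machinery and the tumour necrosis factor (TNF) axis were measured in Drosophila SL2 cells, a male line of embryonic origin. The set comprises 10 genes, taken by their gene identifiers for their roles in the pathway, out of 15139 genes in the deposited tables. They are the inducers rpr (reaper, CG4319), hid (CG5123) and grim (CG4345), the inhibitor Diap1 (CG12284), the caspases Dronc (CG8091) and Drice (CG7788), the adaptor Dark (CG6829), the transcription factor p53 (CG33336), and the TNF ligand egr (eiger, CG12919) with its receptor wgn (wengen, CG6531). All 10 identifiers were found, with 15 transcripts in total. The study sequenced messenger RNA from SL2 cells in 3 libraries, 1 each of control RNAi, RNAi against CLAMP and RNAi against MSL2, all after 6 days of treatment at 25 °C. The knockdown libraries are called CLAMP knockdown and MSL2 knockdown here. RNAi lowers the transcript whose sequence a double-stranded RNA matches. CLAMP is a zinc finger protein that binds GA-rich DNA, and MSL2 belongs to the male-specific lethal complex, which raises transcription of the male X. The labels do not name the sequence that the control RNAi was directed against, and they do not say whether the libraries came from separate cultures. The other 12 samples of the series, chromatin immunoprecipitation and input, were not analysed here.

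In the fly, programmed cell death is held back by Diap1, a ubiquitin ligase that binds caspases and keeps them inactive. The inducers rpr, hid and grim encode proteins whose amino terminus binds Diap1 and displaces the caspases. Dark, the fly relative of mammalian Apaf-1, assembles the initiator caspase Dronc, which cleaves the effector caspase Drice. The p53 protein activates inducer genes after DNA damage. Eiger binds its receptors at the cell surface and signals through the kinase JNK, which can lead to expression of the inducers.

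The library totals behind the RPKM values (reads scaled by transcript length and library total) were nearly equal, from 67844405 to 68301197. The 2 targeted transcripts were checked first. Relative to control, Clamp had a read ratio of 0.299 in the CLAMP knockdown library, with an exact 95% interval of 0.288 to 0.311, and 1.01 in the other. The ratios of msl-2 were 0.976 and 0.260, the latter in the MSL2 knockdown library. With 1 library per group, a difference between libraries has no replicate check, no test across cultures was possible, and an effect of the RNAi and a difference between cultures cannot be told apart. Intervals of ratios are Clopper-Pearson intervals of read counts. They cover counting error only, and reads that may be mates or PCR copies are not independent molecules. "Higher" and "lower" describe these libraries. In RNA from a whole culture, fewer cells expressing a gene and less RNA per cell cannot be told apart.

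In the control library the members spanned the range from no reads to a level near the top of the transcriptome. Diap1 was at the top with an RPKM of 290.1, above 97.2% of the 7485 genes tested, which are those whose level averaged 1 RPKM or more. They are called tested because their ratios were compared by size, not because a significance test was run. The ligand gene egr followed at 120.2 RPKM, Drice at 59.9, wgn at 33.7, Dronc at 21.5, rpr at 19.8, Dark at 12.3, p53 at 9.11 and hid at 3.85. Dronc and rpr were neighbours whose counting intervals overlapped in control (20.7 to 22.3 and 18.7 to 21.0 RPKM), and no other neighbours in this order did. Under CLAMP knockdown the order was the same, and the overlapping neighbours were Dark (9.88 to 10.6 RPKM) and p53 (8.99 to 10.2 RPKM). Under MSL2 knockdown rpr ranked below Dark and stood beside p53, with overlapping intervals of 9.36 to 11.0 and 9.36 to 10.6 RPKM. The gene grim had 0 reads in each of the 3 libraries, which allows an RPKM of up to about 0.026 per library at 3 reads. The remaining 9 members passed the level filter.

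**Figure D1:**
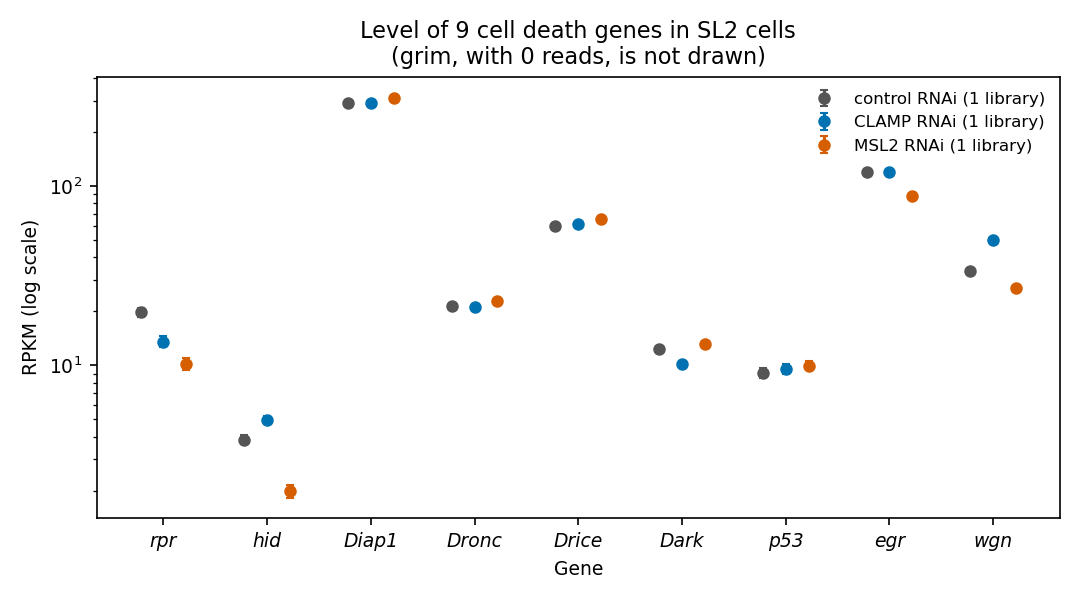
RPKM on a log axis of 9 cell death genes in the 3 SL2 libraries, 1 library per point, with exact Poisson 95% counting intervals as bars, mostly smaller than the points. Diap1 lies near 290.1 to 311.5 RPKM in every library, while the inducers rpr and hid are lowest under MSL2 knockdown, at 10.2 and 1.99 RPKM.

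The expressed inducers, rpr and hid, were lower than control under MSL2 knockdown, at read ratios of 0.514 and 0.517. For rpr, 1146 reads in control compared with 789 under CLAMP knockdown and 587 under MSL2 knockdown, or RPKM values of 19.8, 13.6 and 10.2. Both knockdown libraries were below control, and the MSL2 knockdown library was the lowest. The read ratio of rpr to control was 0.514 under MSL2 knockdown (0.464 to 0.568) and 0.686 under CLAMP knockdown (0.626 to 0.752). On the log2 scale of RPKM plus a pseudocount of 0.1, these were ratios of −0.95 and −0.54. Of all tested genes, 1.18% had a lower ratio than rpr under MSL2 knockdown and 4.61% under CLAMP knockdown. Between the knockdown libraries, MSL2 over CLAMP knockdown, the read ratio of rpr was 0.749 (0.672 to 0.834).

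The hid gene lay above control in the CLAMP knockdown library and below it in the MSL2 knockdown library. It had 1052 reads in control, 1357 under CLAMP knockdown and 542 under MSL2 knockdown, which are RPKM values of 3.85, 4.95 and 1.99. The read ratio to control was 0.517 under MSL2 knockdown (0.465 to 0.574) and 1.28 under CLAMP knockdown (1.18 to 1.39), with log2 ratios of −0.92 and 0.35. Under CLAMP knockdown 3.74% of tested genes had a higher ratio than hid, and under MSL2 knockdown 1.31% had a lower one. Set directly against CLAMP knockdown, the MSL2 knockdown library had a read ratio of 0.402 for hid (0.363 to 0.445), a log2 ratio of −1.27 and the largest distance of any member in any of the 3 comparisons. The RPKM of rpr was 5.14 times that of hid in control, 2.74 times under CLAMP knockdown and 5.11 times under MSL2 knockdown. Together with p53, rpr and hid had the fewest reads of the tested members and the widest intervals.

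Diap1, the inhibitor these inducers bind, was at a high level in each library. It had 39745 reads in control, 39999 under CLAMP knockdown and 42559 under MSL2 knockdown. The RPKM values were 290.1, 290.8 and 311.5, and the MSL2 knockdown library was slightly the highest. The read ratio to control was 1.00 under CLAMP knockdown (0.989 to 1.02) and 1.07 under MSL2 knockdown (1.06 to 1.09). Diap1 thus had 12.3 times the summed RPKM of rpr, hid and grim in control, 15.7 times under CLAMP knockdown and 25.6 times under MSL2 knockdown. These are ratios of RNA levels per length, and the libraries do not measure the proteins.

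The caspases lay close to control in both knockdown libraries. Dronc, the initiator, had 3000 reads in control, 2955 under CLAMP knockdown and 3161 under MSL2 knockdown (21.5, 21.1 and 22.7 RPKM). Its read ratio to control was 0.981 under CLAMP knockdown (0.932 to 1.03) and 1.06 under MSL2 knockdown (1.00 to 1.11). Drice, the effector, had 7872, 8165 and 8586 reads in the same order (59.9, 61.8 and 65.5 RPKM), with ratios of 1.03 (1.00 to 1.07) and 1.09 (1.06 to 1.13). The RPKM of Drice was 2.78 to 2.93 times that of Dronc in every library. Under MSL2 knockdown, Dronc, Drice, Dark, p53 and Diap1 all had log2 ratios between 0.08 and 0.13, and the median over the tested genes of arms 2L, 2R, 3L and 3R was 0.03.

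Dark differed between the knockdown libraries more than the caspases did. It had 4021 reads in control, 3345 under CLAMP knockdown and 4252 under MSL2 knockdown (12.3, 10.2 and 13.1 RPKM). The CLAMP knockdown library was the lowest, at a read ratio of 0.829 to control (0.791 to 0.868), and MSL2 knockdown stood at 1.06 (1.02 to 1.11). Between the knockdowns, MSL2 over CLAMP, the ratio was 1.28 (1.22 to 1.34), the highest among the members, and 9.39% of tested genes had a higher one. The p53 gene had 971, 1024 and 1058 reads in control and the CLAMP and MSL2 knockdowns, or 9.11, 9.57 and 9.95 RPKM. Its ratios to control were 1.05 (0.961 to 1.15) and 1.09 (1.00 to 1.19), so at this depth the counting interval included 1 under CLAMP knockdown and ended near 1 under MSL2 knockdown.

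The TNF ligand gene egr was lower under MSL2 knockdown, and its receptor gene wgn was higher under CLAMP knockdown, each by less than 1.5-fold. The reads of egr numbered 17800 in control, 17855 under CLAMP knockdown and 12915 under MSL2 knockdown (120.2, 120.1 and 87.5 RPKM). Control and CLAMP knockdown were level, and MSL2 knockdown stood apart below them. The read ratio to control was 0.728 under MSL2 knockdown (0.711 to 0.744) and 0.999 under CLAMP knockdown (0.979 to 1.02). With its many reads egr has a narrow interval, but 9.57% of tested genes had a still lower ratio under MSL2 knockdown.

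The wgn gene, the X-linked member, had 5507 reads in control, 8224 under CLAMP knockdown and 4398 under MSL2 knockdown (33.7, 50.1 and 27.0 RPKM). The CLAMP knockdown library was the highest and the MSL2 knockdown library the lowest. The read ratio to control was 1.49 under CLAMP knockdown (1.44 to 1.54), and 1.55% of tested genes had a higher log2 ratio. Under MSL2 knockdown the read ratio was 0.801 (0.770 to 0.833). The log2 ratio of wgn there was −0.32, and the median over the 1292 tested X-linked genes was −0.33, so wgn lay near the middle of its chromosome. Under CLAMP knockdown its log2 ratio of 0.57 compared with an X-linked median of −0.05. The RPKM of egr was 3.57 times that of wgn in control, 2.40 times under CLAMP knockdown and 3.24 times under MSL2 knockdown. The gene of the other fly TNF receptor, grnd (grindelwald, CG10176), had 0 reads in control and 1 read in each knockdown library.

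**Figure D2:**
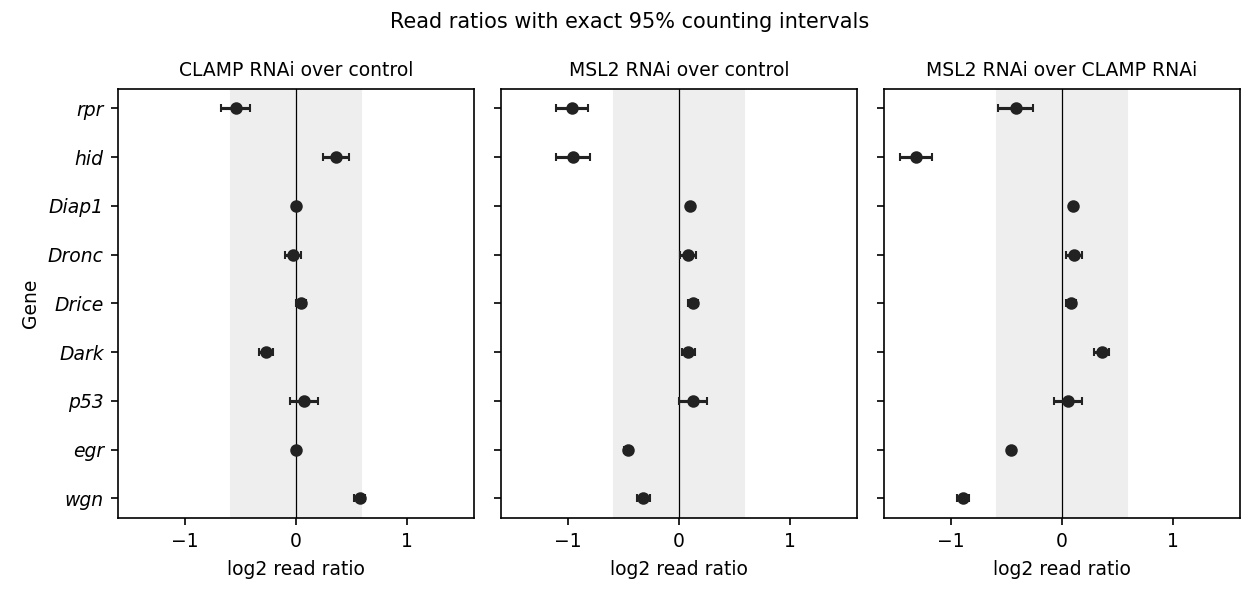
Log2 read ratio (horizontal axis) of 9 members in the 3 comparisons of single libraries, with exact 95% counting intervals as bars, and the band of less than 1.5-fold in grey. In MSL2 knockdown over control rpr and hid lie outside the band at read ratios of 0.514 and 0.517, and in MSL2 over CLAMP knockdown hid and wgn do, at 0.402 and 0.538.

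Counted by a rule of 1.5-fold, chosen in place of a test, the members gave few calls. Under CLAMP knockdown, 0 of the 9 tested members were lower and 0 were higher, where 3.86% and 1.5% of all tested genes were. The nearest to the rule were wgn, just short of it at a read ratio of 1.49, and rpr at 0.686. The wgn gene passed the rule when scaled to an autosomal median of 0, to the upper quartile or by median-of-ratios size factors. The higher members then numbered 1, where 1.78% to 1.79% of all tested genes were higher. Under MSL2 knockdown, 2 of 9 members were lower, rpr and hid, where 5.32% of tested genes were, and 0 were higher, where 2.53% were. The lower share was 14.9% on the X and 3.18% on arms 2L, 2R, 3L and 3R, with rpr and hid on 3L. For MSL2 over CLAMP knockdown, hid and wgn were lower, where 3.62% of tested genes were, and 0 members were higher, where 4.24% were. Of tested X-linked genes, such as wgn, 7.89% were lower there, at a median log2 ratio of −0.27. On arms 2L, 2R, 3L and 3R these values were 2.71% and 0.08. With upper-quartile scaling, 288 tested genes were lower and 235 higher under MSL2 knockdown, in place of 398 and 189. With an autosomal median of 0, MSL2 over CLAMP knockdown had 382 lower and 259 higher genes in place of 271 and 317. The lower members, rpr and hid in the first and hid and wgn in the second, passed the rule under these scalings too. By a rule of 2-fold, 0 members were lower or higher under CLAMP knockdown, where 1.16% and 0.588% of tested genes were, and 0 under MSL2 knockdown, where 0.975% and 0.588% were. Between the knockdowns hid alone was 2-fold lower, where 1.11% of tested genes were, and 0 members were higher, where 1.66% were. The median log2 ratio over the members was 0.00 under CLAMP knockdown and 0.08 under MSL2 knockdown, beside −0.06 and −0.02 over all tested genes. In MSL2 over CLAMP knockdown it was 0.06, beside 0.05. The comparisons with control share 1 control library. The comparison of the knockdown libraries does not use it, and there hid and wgn were at log2 ratios of −1.27 and −0.89, egr at −0.46 and rpr at −0.41.

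**Figure D3:**
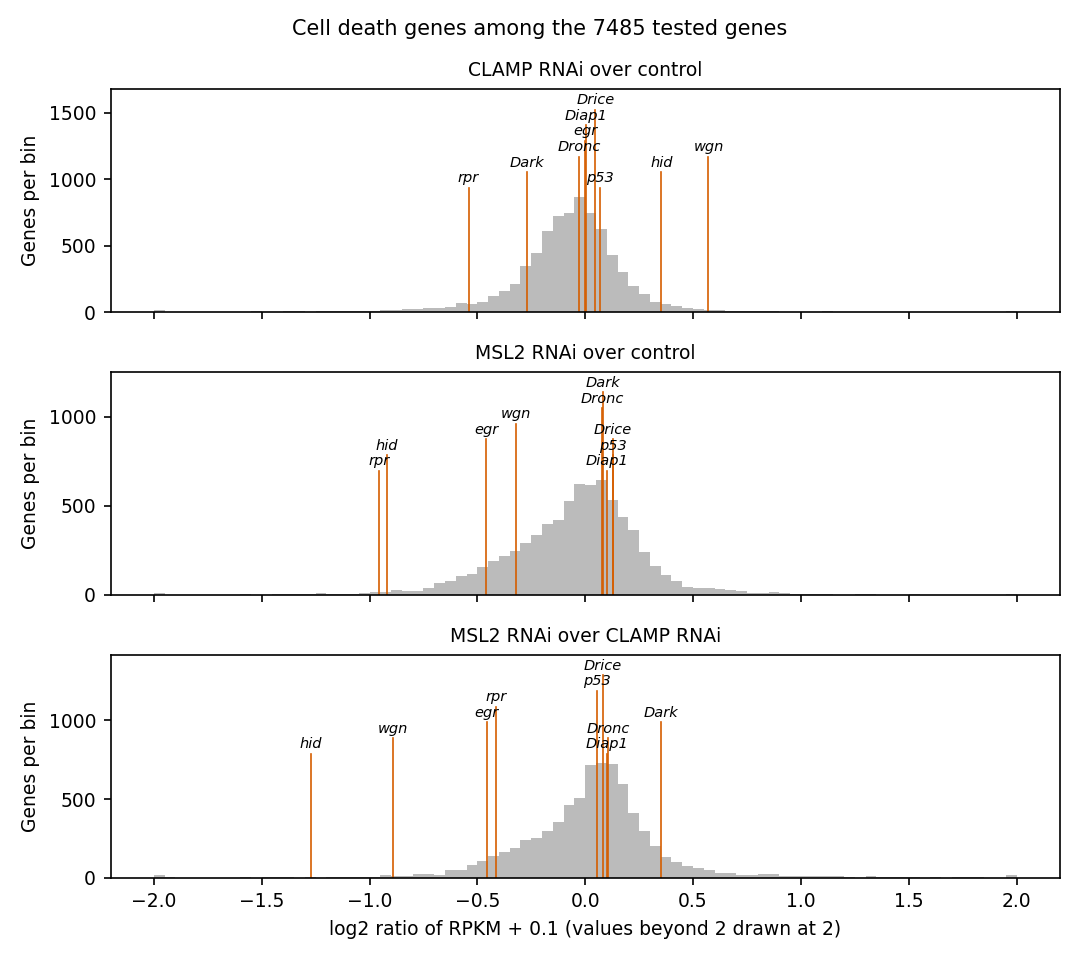
Histograms of the log2 ratio of RPKM + 0.1 over the 7485 tested genes, in bins of equal width, with the members marked by lines (line height has no meaning). Diap1, Dronc, Drice and p53 lie in the bulk of each histogram, and rpr and hid in its lower tail under MSL2 knockdown, at −0.95 and −0.92.

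The files list several transcripts for 4 of the members, and reads in shared exons enter the count of each. Dark has a long transcript, RB (4791 bases), and a short one, RA (1823 bases). The reads of RA numbered 983 in control, 590 under CLAMP knockdown and 753 under MSL2 knockdown. They equalled 24.4% of the RB reads in control, 17.6% under CLAMP knockdown and 17.7% under MSL2 knockdown, so the knockdown libraries were alike and below control. The read ratio of RA to control was 0.598 under CLAMP knockdown (0.539 to 0.663) and 0.768 under MSL2 knockdown (0.698 to 0.846). RB stood at 0.829 and 1.06. RA was thus more than 1.5-fold lower under CLAMP knockdown, and the count of 0 lower members there rests on RB standing for Dark. For Diap1, the RA transcript is 155 bases longer than RB and had 3880 more reads in control, 2949 more under CLAMP knockdown and 2984 more under MSL2 knockdown. RB itself had 35865, 37050 and 39575 reads, so RA exceeded RB by less in both knockdown libraries while RB was higher in both. The p53 transcripts RA and RB differed by 5 to 27 reads per library and those of egr by 0 to 21, so their counts do not separate isoforms. The reads of these transcripts overlap to an unknown extent, and the ratios are not isoform fractions.

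**Figure D4:**
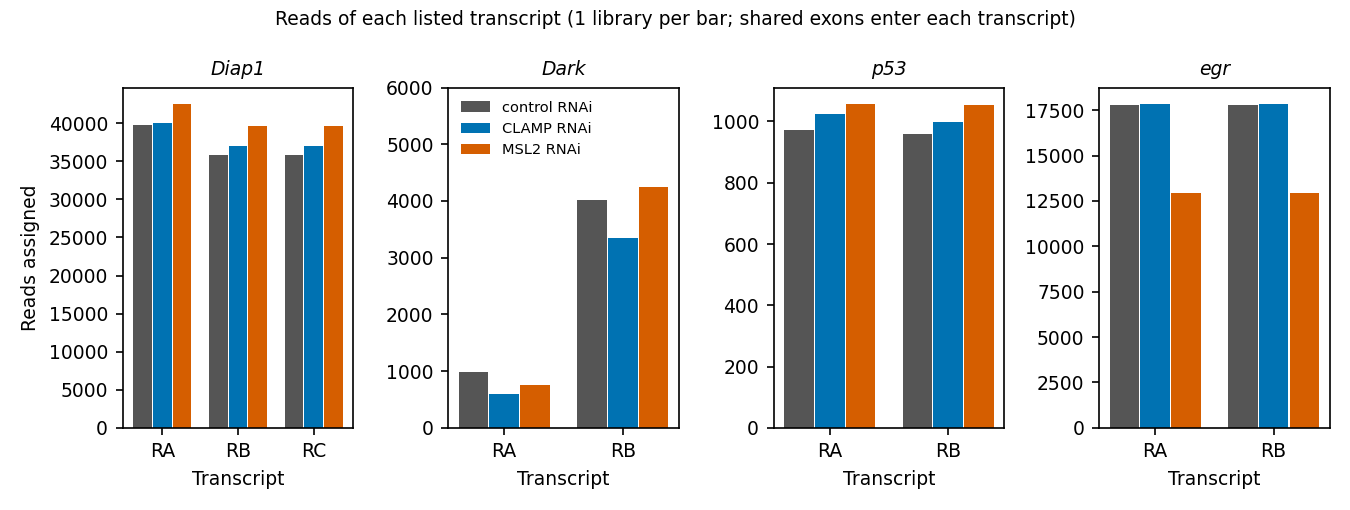
Reads assigned to each listed transcript of Diap1, Dark, p53 and egr (vertical axes from 0, a scale for each gene), 1 bar per library. The short Dark transcript RA is highest in control at 983 reads, whereas the long transcript RB is highest under MSL2 knockdown at 4252 reads.

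The inducers form a cluster on arm 3L, in the annotated order hid, grim, rpr and skl (sickle, a further inducer of the same kind). Apart from rpr, the protein-coding genes between hid and skl were near silent. CG7320 had 2 to 4 reads per library, CheA75a 0 to 2, and CG5103, CG13700 and grim 0. The skl gene itself had 1 read in each library. Among the protein-coding genes of this stretch, hid and rpr were thus the ones above the level filter. The noncoding RNAs annotated there were not analysed here. No annotated gene overlaps hid, rpr, Dronc, Drice or wgn. Diap1, Dark, p53, grim and egr overlap others, mostly noncoding RNAs not listed in the files. The Gr94a gene, which overlaps p53, had 184, 167 and 261 reads in control and the CLAMP and MSL2 knockdowns, and the use of strand is not given, so reads of the overlap could not be told apart. Among genes beside the other members, Rip11 next to wgn had log2 ratios of 0.01 under CLAMP knockdown and −0.19 under MSL2 knockdown, and CG1371 next to egr 0.03 and 0.13. RhoGEF2 beside Dark stood at −0.15 and −0.12, and Mbs beside Diap1 at −0.01 and −0.01. The neighbours of Drice, Rnb and Etfb, had −0.12 and 0.11, and 0.27 and 0.28. For Paip1 beside Dark the values were 0.12 and 0.04, and for CG6674 beside Dronc −0.16 and −0.08. Gr94a, which is also the neighbour of p53 on one side, had −0.14 and 0.49, the latter the farthest from control among these neighbours. None of them was 1.5-fold from control, and the remaining protein-coding neighbours were below the level filter.

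The tested genes most like rpr in both log2 ratios to control, by Euclidean distance over the 3 libraries, were CG5691 (distance 0.01), CG12714 (0.08) and Glos (0.08). Of these, CG12714 and Glos are X-linked. CG5691 had 2169, 1504 and 1104 reads in control and the CLAMP and MSL2 knockdowns. A total of 30 tested genes lay within 0.2 of rpr. For hid the nearest were gas (0.04), the antimicrobial cecropin gene CecA1 (0.07) and the X-linked CG8557 (0.11), and 11 genes lay within 0.2. The gas gene had 1592, 2069 and 856 reads.

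Further genes of cell death and corpse removal were described in 6 lists that hold none of the 10 members, which had 83 tested genes of 95 found in the files. Together, 5 were at least 1.5-fold lower (6.02%) and 1 higher (1.20%) under CLAMP knockdown, where 3.86% and 1.5% of all tested genes were. Under MSL2 knockdown 3 were lower (3.61%) and 0 higher, where 5.32% and 2.53% of all tested genes were. In MSL2 over CLAMP knockdown 7 were lower (8.43%) and 4 higher (4.82%), where 3.62% and 4.24% of all tested genes were. The medians were −0.02 and −0.06 in the comparisons with control, beside −0.06 and −0.02 over all tested genes. Many of the counted genes lay near the level filter. Under CLAMP knockdown the lower genes Drep1, Drep2, dnr1 and Egfr were at 0.479 to 0.891 RPKM and passed it through the other libraries. The higher gene, NimC4, passed it through the CLAMP knockdown library alone. Above a mean level of 5 RPKM, 1 of 72 list genes was lower under CLAMP knockdown (1.39%), beside 2.04% of all tested genes.

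In the list of caspases and apoptosome genes 7 of 10 were tested. Under CLAMP knockdown 1 was lower, dnr1, a RING protein gene that restrains the caspases Dredd and Dronc, with 318 reads in control, 187 under CLAMP knockdown and 416 under MSL2 knockdown. Its read ratio to control was 0.586 (0.486 to 0.704) under CLAMP knockdown and 1.31 (1.13 to 1.52) under MSL2 knockdown. The effector caspase gene Dcp-1, a close relative of Drice, had 1453, 1552 and 1723 reads, and the caspase gene Strica 7777, 6958 and 7146, so both were within the 1.5-fold band. The caspase genes Damm and Decay had 2 to 8 reads per library and were not tested. The list median was −0.09 under CLAMP knockdown and 0.21 under MSL2 knockdown.

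In the list of inducer kin, inhibitor and nuclease genes 12 of 15 were tested. Under CLAMP knockdown 2 were lower, Drep1 and Drep2, genes of the DNA fragmentation factor family. Drep1, whose protein restrains the apoptotic nuclease Drep4, had 326 reads in control, 131 under CLAMP knockdown and 352 under MSL2 knockdown. Its read ratio under CLAMP knockdown was 0.400 (0.324 to 0.492). Drep2 had 412, 171 and 594 reads, with ratios of 0.413 (0.344 to 0.495) under CLAMP knockdown and 1.45 (1.27 to 1.64) under MSL2 knockdown. The nuclease gene Drep4 had 1207, 1139 and 1137 reads and was close to control. Under MSL2 knockdown 0 of the 12 passed the rule in either direction. The list median was −0.09 under CLAMP knockdown and 0.06 under MSL2 knockdown. Both Drep genes lie near the level filter, with RPKM values of 0.479 to 2.41, and above a mean level of 5 RPKM neither is tested.

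The TNF and JNK list had 15 tested genes, and 0 were 1.5-fold from control in either comparison. Under MSL2 knockdown the list median was −0.20, with 5 of 5 X-linked members below control at a median of −0.29 and 6 of 10 autosomal members at a median of −0.12. Over all tested X-linked genes the median there was −0.33 and the upper quartile −0.16, so most X-linked genes were below control. On arms 2L, 2R, 3L and 3R the median was 0.03. The X-linked kinase gene slpr, which acts upstream of JNK, had 5153, 5532 and 3601 reads in control and the CLAMP and MSL2 knockdowns and the lowest log2 ratio under MSL2 knockdown, −0.51. Mmp1, a matrix metalloprotease gene that JNK signalling is known to induce, had 14124, 20513 and 10693 reads. Its ratio to control was 1.45 (1.42 to 1.48) under CLAMP knockdown and 0.759 (0.740 to 0.779) under MSL2 knockdown. It was above control under CLAMP knockdown and below it under MSL2 knockdown. The share of tested genes with these signs was not counted. The lower genes of the list in MSL2 over CLAMP knockdown were slpr (−0.60) and Mmp1 (−0.93).

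Of the 14 tested genes of the p53 and DNA damage list, 0 passed the rule under CLAMP knockdown, where mre11, a gene of double-strand break repair, was farthest from control at a log2 ratio of −0.25. Under MSL2 knockdown 1 was lower, the X-linked mei-41, which encodes the fly ATR kinase. It had 3803, 3458 and 2240 reads and a ratio of 0.591 (0.560 to 0.622). Of tested X-linked genes, 14.9% were lower there. Xrp1, a transcription factor gene that p53 induces after irradiation, had 51267 reads in control, 55142 under CLAMP knockdown and 69291 under MSL2 knockdown. It was highest under MSL2 knockdown, at a log2 ratio of 0.44, which is short of 1.5-fold. The list medians were −0.14 under CLAMP knockdown and 0.01 under MSL2 knockdown.

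The largest ratio among these lists belonged to an engulfment gene. NimC4 (also called simu), a receptor by which phagocytes bind apoptotic cells, had 47 reads in control, 542 under CLAMP knockdown and 53 under MSL2 knockdown, or 0.540, 6.20 and 0.610 RPKM. Control and MSL2 knockdown were at about the same low level, and the CLAMP knockdown library stood far above them. The read ratio to control was 11.5 under CLAMP knockdown (8.52 to 15.8) and 1.13 under MSL2 knockdown (0.749 to 1.71). NimC4 passed the level filter through its CLAMP knockdown library alone, and a single annotated gene that overlaps it, nAChRalpha5, had 0 reads in each library. The engulfment receptor gene drpr (draper) had 15005, 20191 and 13020 reads in control and the CLAMP and MSL2 knockdowns. It was among the lower genes in MSL2 over CLAMP knockdown, at a ratio of 0.649 (0.635 to 0.664), with NimC4 at 0.098 and the scavenger receptor gene santa-maria at 0.484. The last had 290, 281 and 135 reads and was the list's single lower gene under MSL2 knockdown. The medians over the 14 tested engulfment genes were −0.01 and −0.07 in the comparisons with control.

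The list of upstream regulators of the inducers had 21 tested genes. Under CLAMP knockdown 2 were lower, the ecdysone response gene br (1974, 1202 and 1774 reads in control and the CLAMP and MSL2 knockdowns) and the receptor gene Egfr (414, 212 and 414 reads). The read ratio was 0.607 for br (0.564 to 0.652) and 0.510 for Egfr (0.430 to 0.603). Under MSL2 knockdown 1 was lower, rl, the gene of the fly ERK kinase, which restrains hid, with 1393, 1142 and 888 reads and a ratio of 0.639 (0.587 to 0.696). Like several other genes of this list, Eip74EF was above control under CLAMP knockdown and below it under MSL2 knockdown. Another ecdysone response gene, it had 1729, 2360 and 1292 reads. Its ratio in MSL2 over CLAMP knockdown was 0.551 (0.515 to 0.590), and Egfr was the single higher gene at 1.97 (1.66 to 2.33). The list medians were −0.02 under CLAMP knockdown and −0.16 under MSL2 knockdown. Under MSL2 knockdown the 5 X-linked members had a median of −0.31, beside −0.33 over all tested X-linked genes. The Egfr and br genes overlap others, and of these CG30283 (99, 16 and 99 reads) had fewest reads in the same library as Egfr. Mur2B, which overlaps br, had 233, 410 and 284 reads and was highest in the library in which br was lowest. In the lists above, drpr, santa-maria, mei-41, slpr and Mmp1 also overlap genes with reads, and how many reads they share was not tested. The gene that overlaps mre11, Osi21, had 3 to 4 reads per library.

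**Figure D5:**
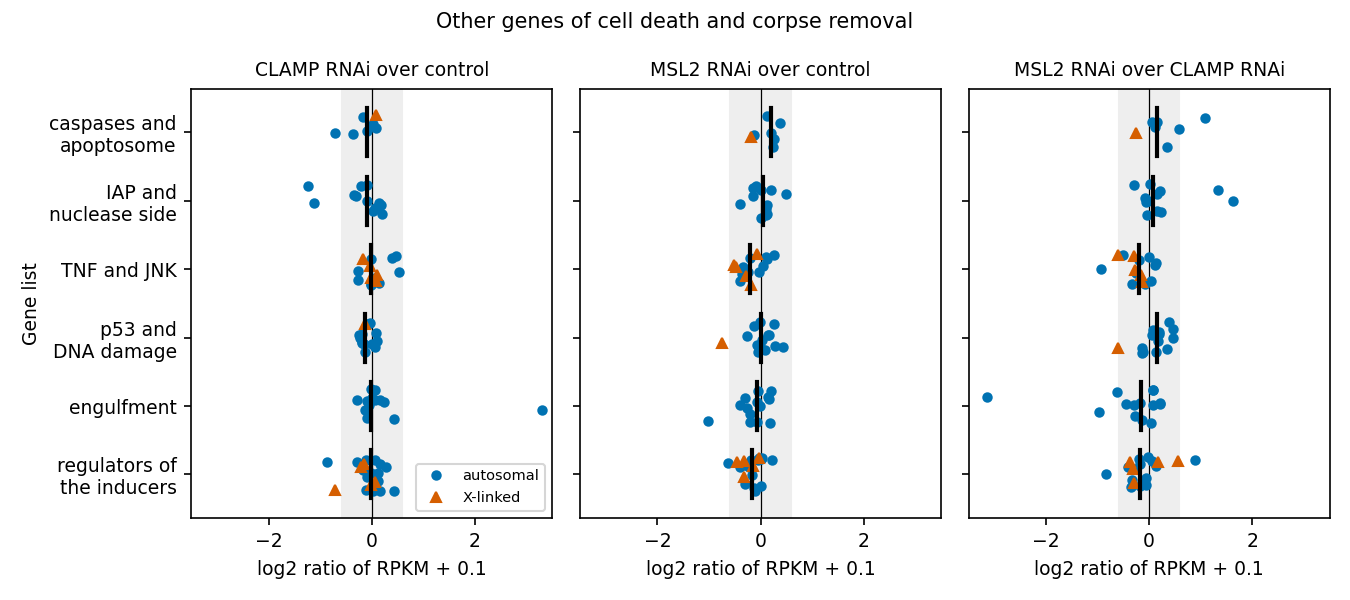
Log2 ratio of RPKM + 0.1 for each tested gene of 6 lists in the 3 comparisons, with X-linked genes as triangles, autosomal genes as circles, the list median as a black line and the band of less than 1.5-fold in grey (vertical scatter within a list has no meaning). NimC4 of the engulfment list lies far to the right under CLAMP knockdown, at 3.30, and Drep1 and Drep2 lie to the left, at −1.23 and −1.12.

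Markers of blood cells, the lineage that SL2 resembles, also differed between these libraries. The summed RPKM of 8 hemocyte markers was 1390 in control, 2077 under CLAMP knockdown and 1749 under MSL2 knockdown. Most of the difference in this sum came from Pxn, at 326.0, 859.8 and 564.4 RPKM, and then vkg, at 796.2, 938.7 and 912.6 RPKM. Under CLAMP knockdown 2 of the 8 were at least 1.5-fold higher, Hml and Pxn, and 1 was lower, He, where 1.5% and 3.86% of all tested genes were. Under MSL2 knockdown 3 were higher, with Ppn in addition, and He was again lower, where 2.53% and 5.32% of all tested genes were. None of the 8 was at 0 reads in any library, and 2 of them, NimC1 and crq, are also in the engulfment list. Of the markers of other cell types, the 3 fat body genes had a summed RPKM of 0.202 to 0.354, and 1 of them was at 0 reads in each knockdown library. The 4 neuron genes summed to 12.2 to 13.2 RPKM, which hides elav at a log2 ratio of −0.60 and brp at 0.64 under MSL2 knockdown. Of these, elav is X-linked, and the median over all tested X-linked genes there was −0.33. The 4 muscle genes summed to 54.6 to 88.9 RPKM, nearly all from the broadly expressed Tm1, which was lower under CLAMP knockdown at a log2 ratio of −0.71. The 4 germline genes summed to 84.3 to 105.7 RPKM, mostly from piwi and aub, and 0 of these was 1.5-fold from control. The 2 epithelial genes summed to 2.99 to 5.08 RPKM, and of these crb was higher under MSL2 knockdown at a log2 ratio of 0.81. The part of these differences in the values of rpr, hid, wgn, egr and NimC4 was not tested.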

How the data were processed

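Messenger RNA of SL2 cells was measured in 1 library per group. Per the submitters' processing notes, Bowtie and dm3 were used. The sources used here do not give the counting tool, its annotation or its use of strand. The deposited read counts are whole reads for each of 22353 transcripts, and the deposited RPKM values equal count over length and library total, as recomputed. Deposited lengths and totals were used as given.

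The transcript with the most reads on average stood for each of 15139 genes. Symbols, arms and gene order came from a Release 6 annotation table (13783 genes matched by locus tag, 749 by synonym, 607 unmatched), which differs from dm3, so no coordinates are given. Genes with mean levels from 1 RPKM upward were tested by size, 7485 in all. Log2 ratios used a pseudocount of 0.1, which understates the change of low genes. Ratio intervals are exact Clopper-Pearson intervals, and RPKM intervals exact Poisson intervals. Count models across samples need replicates and were not run. Python 3.11.15, numpy 2.4.6, pandas 2.3.3 and scipy 1.17.1 were used.

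Members, lists and thresholds were chosen with earlier results of these data known. Named are all members, the RNAi targets, neighbours, 3 nearest genes each for rpr and hid, and in each list the genes past 1.5-fold or else the farthest. Other genes (grnd, skl, Dcp-1, Strica, Damm, Decay, Drep4, Xrp1, markers and overlapping genes) were named after their values were seen. No protein or promoter sequence was used here. Alternatives were other pseudocounts, level filters, scalings, the longest transcript and a 2-fold rule.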

Additional observations from a re-analysis of the deposited data

How the results depend on the processing

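No direction of a member past 1.5-fold turned under the alternatives tried, but these could not have turned one. The scalings shifted the median log2 ratio by 0.08 or less, and a pseudocount or level filter keeps the sign. Of the 27 member ratios, 3 changed sign under some scaling (Dronc and egr under CLAMP knockdown, p53 in MSL2 over CLAMP knockdown), all near 0. Of 213 alternative values, 184 stayed within the counting error, 29 moved beyond it and 0 reversed past the rule. Many of the 184 could not move. A level filter leaves a member's own ratio as it is, and the longest transcript differs from the one used for p53 alone. The shorter Dark transcript RA, more than 1.5-fold lower under CLAMP knockdown, was thus not among the alternatives. Except for hid with a pseudocount of 1, all moves came from the scalings. Under CLAMP knockdown the higher members numbered 1 (wgn) in place of 0 when scaled to an autosomal median of 0, by upper quartile or by median-of-ratios size factors. Of all tested genes, 1.78% to 1.79% were higher under these scalings. The lower members under MSL2 knockdown, in place of 2, numbered 1 above a mean level of 5 RPKM, where hid is not tested. They numbered 0 by the 2-fold rule. Of all tested genes, 4.12% were lower above that level and 0.975% by the 2-fold rule. In MSL2 over CLAMP knockdown the lower members numbered 1 above that level and 1 by that rule, in place of 2. By the 2-fold rule 1.11% of all tested genes were lower there. With a pseudocount of 1 the log2 ratio of hid under MSL2 knockdown was −0.70.

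Counts over all tested genes and over the lists, recomputed after the data had been seen, depended more on such choices. Under CLAMP knockdown the 289 lower and 112 higher genes became 183 and 74 with a pseudocount of 1, 712 and 375 without a filter, 131 and 51 above a mean level of 5 RPKM, and 87 and 44 by the 2-fold rule. Under MSL2 knockdown the 398 lower and 189 higher became 717 and 650 without a filter, 265 and 67 above a mean level of 5 RPKM, and 73 and 44 by the 2-fold rule, and the higher genes 116 with a pseudocount of 1. In MSL2 over CLAMP knockdown the 271 lower and 317 higher became 544 and 900 without a filter and 83 and 124 by the 2-fold rule, and the higher genes 133 above a mean level of 5 RPKM. In the 6 lists, the 5 lower genes under CLAMP knockdown became 2 of 83 with a pseudocount of 1. That is 2.41%, beside 2.44% of all tested genes. Above a mean level of 5 RPKM they became 1 of 72 (1.39%), below the 2.04% of all tested genes. By the 2-fold rule they became 2 (2.41%), where 1.16% of all tested genes were lower. The 1 higher gene under CLAMP knockdown became 2 (2.41%) under each of the 3 scalings, with Mmp1 added. Of all tested genes, 1.78% to 1.79% were higher there. Above a mean level of 5 RPKM it became 0 of 72, where 0.792% of all tested genes were higher. The 3 lower under MSL2 knockdown became 1 (1.20%) by the 2-fold rule, where 0.975% of all tested genes were lower. In MSL2 over CLAMP knockdown the 7 lower became 1 by the 2-fold rule, where 1.11% of all tested genes were lower. The 4 higher became 0 above a mean level of 5 RPKM, where 133 of 6437 tested genes were higher.

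No paired analysis was possible because each group of mRNA libraries has 1 sample. Among the tested members, depth limits hid, rpr and p53 most, and several list genes, such as NimC4, santa-maria, dnr1, Egfr and the Drep genes, had fewer reads still in at least 1 library.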
